A study of Mus musculus with 20 samples.

Results

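The genes described here make fatty acids, join them into triglyceride, take triglyceride apart again or load it for export from the liver. They are 35 genes named for these steps, found by symbol among the 36106 genes of the deposited count table, and all 35 were found there. Their roles are control of synthesis (4 genes), fatty acid synthesis and activation (10), glycerolipid assembly (12), lipolysis (7) and secretion (2). A total of 34 passed the filter on low counts. Pnpla5, a patatin-domain lipase, did not: it held 10 counts over all libraries, 8 of them in a single library.

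Livers came from male mice that had an orchiectomy, the surgical removal of the testes (ORX), or a sham operation. After surgery the mice breathed normal air (normoxia, Nx) or intermittent hypoxia (IH), repeated falls in oxygen as in sleep apnoea, for 2 weeks. The groups are Sham_Nx (4 libraries, from mice 2 to 5), Sham_IH (5), ORX_Nx (5) and ORX_IH (5), each library from poly(A) RNA of whole frozen liver of a separately numbered mouse. The series studied low testosterone together with intermittent hypoxia. Strain, age, the interval after surgery and the oxygen cycle are not given in the sources used here. The mice carry no genetic change named there, and orchiectomy removes all testicular hormones, not testosterone alone.

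In hepatocytes, the transcription factor SREBP-1c (from Srebf1) is induced and activated by insulin and switches on the enzymes that turn acetyl-CoA into palmitate, while ChREBP (from Mlxipl) does so in response to glucose. The fatty acids are activated to acyl-CoA and joined to glycerol 3-phosphate by acyltransferases, phosphatidate phosphatases (lipins) and diacylglycerol acyltransferases. Triglyceride is then stored in droplets, broken down by lipases, or packed into very-low-density lipoprotein (VLDL) with the help of the microsomal transfer protein from Mttp.

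RefSeq promoter windows from 250 bases before to 50 bases after the annotated start (GRCm38.p6, a different build from the submitters' GRCm39) were found for 30 of the 35 members, 42 windows in all. The windows of Fasn (fatty acid synthase), Thrsp and Mid1ip1 are shown because these genes had the 3 highest correlations with Srebf1 across libraries, given further on. Capitals mark CCAAT (or ATTGG on the other strand), TCACNTGA, the form of an SREBP-binding E-box, and AGAACA (or TGTTCT), a single arm of the paired element that steroid receptors bind. All 3 read 5′ to 3′ on the coding strand.
Fasn, chr11:120824498-120824797, minus strand: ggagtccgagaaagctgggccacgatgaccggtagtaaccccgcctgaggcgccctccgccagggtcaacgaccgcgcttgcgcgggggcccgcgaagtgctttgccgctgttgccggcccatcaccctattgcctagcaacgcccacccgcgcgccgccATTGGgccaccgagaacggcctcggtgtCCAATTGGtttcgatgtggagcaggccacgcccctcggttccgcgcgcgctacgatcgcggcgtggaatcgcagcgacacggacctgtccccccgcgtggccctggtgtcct
Thrsp, chr7:97417501-97417800, minus strand: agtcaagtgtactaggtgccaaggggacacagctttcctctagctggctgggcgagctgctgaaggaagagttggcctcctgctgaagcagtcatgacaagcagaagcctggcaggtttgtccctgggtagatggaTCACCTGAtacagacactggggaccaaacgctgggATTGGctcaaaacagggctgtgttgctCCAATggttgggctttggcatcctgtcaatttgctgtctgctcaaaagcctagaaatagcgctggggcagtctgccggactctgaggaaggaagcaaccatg
Mid1ip1, chrX:10717115-10717414, plus strand: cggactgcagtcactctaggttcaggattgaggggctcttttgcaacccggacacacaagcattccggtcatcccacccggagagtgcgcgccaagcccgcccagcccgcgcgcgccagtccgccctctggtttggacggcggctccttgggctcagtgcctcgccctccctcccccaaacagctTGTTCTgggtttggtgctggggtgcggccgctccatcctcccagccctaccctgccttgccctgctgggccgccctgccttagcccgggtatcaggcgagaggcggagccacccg
In Fasn, 2 of the 3 CCAAT matches overlap on opposite strands. CCAAT was in 18 of the 42 members' windows (42.9%) and in 37.4% of all 32851 windows, searched on both strands. TCACNTGA was in 1 members' window and 4.18% of all windows, and AGAACA in 9 (21.4%) and 19.0%. The E-box CACGTG was in 7 (16.7%) against 7.15%, and the sterol element core CACCCCAC in 1 (that of Gpam) against 2.87%. These matches describe the letters of the windows only.

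The libraries held 29291380 to 69550701 estimated counts. As a check of the surgery labels, 5 of 5 androgen-dependent liver genes fell with orchiectomy in normoxia, from sums of 6248 to 7259 CPM in Sham_Nx to 170 to 483 in ORX_Nx, and 5 of 5 fell under intermittent hypoxia. Levels are given as CPM, counts relative to the total of each library after scaling by the trimmed mean of M-values (TMM), and levels of different genes are compared only per kilobase of the deposited mean length (RPKM). Differences are log2 fold changes with standard errors (SE) from edgeR's quasi-likelihood test over all 4 groups, called at a Benjamini-Hochberg adjusted p under 0.05 over the 16164 genes tested. Counts of members at an unadjusted p, and most counts by other tests, stand without the share of all genes. They are not read as results about the members. Summed hepatocyte markers (9 genes) ran from 89801 to 101956 CPM in Sham_Nx and from 112051 to 119418 in Sham_IH, with no overlap. Most of that sum was Alb, at 55128 to 66636 CPM in Sham_Nx and 69905 to 78553 in Sham_IH. Fgb also did not overlap, while Ttr, Apoa1, Apoa2, Serpina1c, Ahsg, Cps1 and Ass1 did. Mice 4 and 5 of ORX_Nx stood apart, with 1121 and 732 CPM of 11 Kupffer cell and macrophage markers (266 to 477 in the other 3) and 7718 and 4703 CPM of 10 acute phase genes (2025 to 2430.2 in the other 3). Skeletal muscle markers (14 genes) reached 1151 and 682 CPM in mice 1 and 2 of ORX_IH and 190.4 and 46.1 in mice 2 and 3 of Sham_Nx, against 1.15 to 10.2 elsewhere. Pancreatic acinar markers (11 genes) reached 1315 CPM in mouse 5 of Sham_IH, 559 in mouse 5 of Sham_Nx and 230.3 in mouse 1 of ORX_IH. The part of these genes in the results below was not tested unless a value without those libraries is given. In whole liver, fewer cells of a type and less RNA per cell cannot be told apart.

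Per kilobase, the most abundant members in Sham_Nx were Dgat2, which adds the last fatty acid of triglyceride, at 191 ± 12.3 RPKM (SD, n = 4), Mgll at 136.1 ± 10.1, Agpat2 at 133.8 ± 10.4, Acsl5 at 132.8 ± 7.77, Mttp at 133.5 ± 7.45 and Agpat3 at 129 ± 8.86. The last 5 did not differ beyond their spread. Slc25a1, the mitochondrial citrate carrier, followed at 110 ± 2.63 and Mlxipl at 95.05 ± 20.8. Srebf1 stood at 12.3 ± 0.855 and Fasn at 26.3 ± 2.61. The lowest members past the filter were Pnpla3 at 0.259 ± 0.170 and Hilpda, an inhibitor of adipose triglyceride lipase, at 1.75 ± 0.324.

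**Figure D1:**
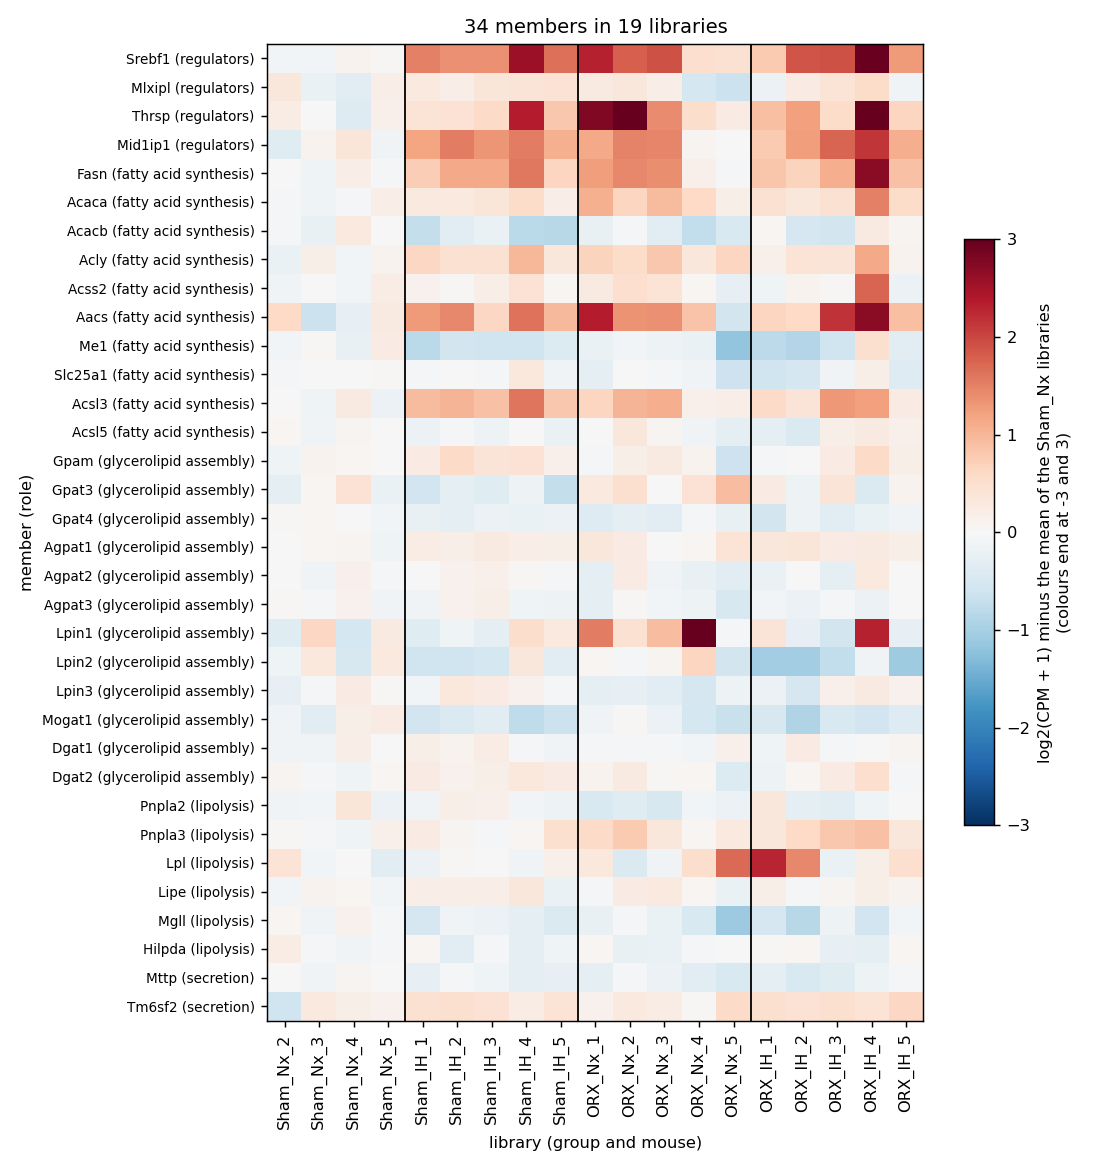
Rows are the 34 members past the filter, ordered by role, and columns the 19 libraries by group. Colour gives log2(CPM + 1) minus the mean of the Sham_Nx libraries. The colour scale is cut off at both ends. Srebf1, Fasn, Mid1ip1 and Acsl3 are red in all 5 Sham_IH libraries and pale in mice 4 and 5 of ORX_Nx. Mouse 4 of ORX_IH is the reddest column for Fasn (706 CPM). For Thrsp it is at the red end of the scale (266 CPM), as is mouse 2 of ORX_Nx (62.3 CPM).

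Orchiectomy in normoxia raised 5 members, Srebf1, Mid1ip1, Acaca, Acly and Pnpla3, where 7.88% of all genes tested rose. It lowered 1, Gpat4, where 6.46% of all genes fell. The members' median log2 fold change was 0.04, against 0.01 over all genes. In 3 members, Srebf1, Acly and Thrsp, every ORX_Nx library lay above every Sham_Nx library (5.69% of all genes did), and in none did every library lie below (6.65% of all genes). Averaged over both exposures, orchiectomy raised 7 members (11.8% of all genes), namely Srebf1, Thrsp, Acaca, Pnpla3, Gpat3, Lpin1 and Lpl, and lowered 0 (10.1% of all genes). For members lower after orchiectomy on average, DESeq2 and limma-trend called 1 each and limma-voom 0, and 15 members reached an unadjusted p under 0.05 in either direction by edgeR.

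Under intermittent hypoxia, orchiectomy changed 0 members by edgeR's test, where 1.31% of all genes rose and 1.57% fell. At an unadjusted p under 0.05 there were 6, and DESeq2, limma-voom and limma-trend called 0 each. No member's ORX_IH libraries all lay above (2.77% of all genes) or below (3.07%) the Sham_IH libraries.

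Intermittent hypoxia in sham mice also changed 0 members by edgeR's test over all groups, where 0.099% of genes rose and 0.204% fell. At an unadjusted p under 0.05 there were 15. DESeq2 called 5, of which 4 rose (0.962% of all genes) and 1 fell (1.28%), and limma-voom and limma-trend called 0. The libraries nevertheless separated. In 11 of 34 members every Sham_IH library lay above every Sham_Nx library, where 4.31% of all genes did: Srebf1, Fasn, Acaca, Acly, Aacs, Thrsp, Mid1ip1, Gpam, Agpat1, Dgat2 and Acsl3. In 4, Me1, Gpat4, Mogat1 and Mgll, every Sham_IH library lay below, where 4.21% did. The test takes its spread from all 4 groups, and the coefficient of variation of Srebf1, for example, was 6.96% in Sham_Nx, 41.6% in Sham_IH, 53.0% in ORX_Nx and 61.7% in ORX_IH. With the 2 sham groups fitted alone, 8 members rose (1.53% of genes) and 2 fell (1.66%), at adjusted p from 0.0060 to 0.049. Those 8 were Srebf1, Mid1ip1, Acsl3, Fasn, Aacs, Acly, Gpam and Acaca, and the 2 were Me1 and Gpat4. This comparison and orchiectomy in normoxia share the Sham_Nx libraries, which had the lowest group means of Srebf1, Fasn and Mid1ip1.

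In orchiectomized mice, intermittent hypoxia changed 0 members by edgeR's test (0.0186% of all genes rose and 0.0557% fell), 3 at an unadjusted p under 0.05, 1 by DESeq2 and 0 by limma-voom and limma-trend. No member separated the 2 groups upward (1.18% of all genes) or downward (1.12%). Averaged over both operations, intermittent hypoxia raised 3 members, Srebf1, Mid1ip1 and Acsl3 (1.96% of all genes rose), and lowered 1, Mogat1 (2.57% fell). The interaction, which asks whether the effect of one exposure depends on the other, was called for 0 members and for 0% of all genes by edgeR. For the members 4 reached an unadjusted p under 0.05, and DESeq2, limma-voom and limma-trend called 0. A difference in effect between the operations was therefore not shown for any member.

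**Figure D2:**
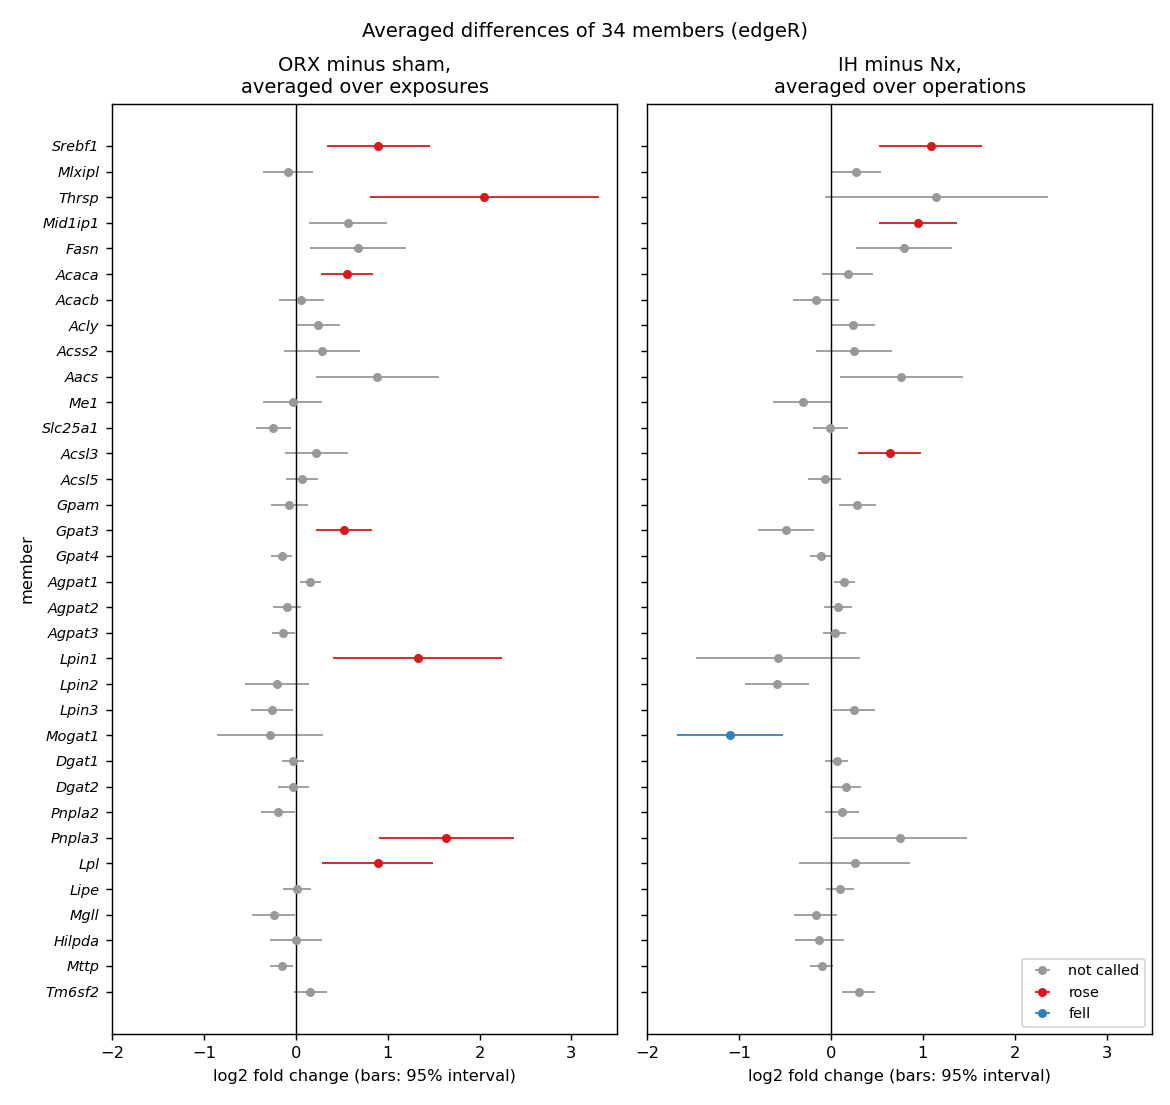
Log2 fold change (x axis) of each of the 34 members for orchiectomy averaged over exposures (left) and intermittent hypoxia averaged over operations (right), with 95% intervals from the SE. Red points rose, blue fell and grey were not called. The 7 red points on the left include Thrsp at 2.05 and Pnpla3 at 1.64, and the only blue point is Mogat1 under intermittent hypoxia at -1.10.

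Srebf1, which encodes both SREBP-1 forms that the counts do not separate, had 33.0, 33.2, 38.0 and 36.2 CPM in Sham_Nx. It had 102, 92.9, 91.5, 211 and 112 CPM in Sham_IH. In ORX_Nx it had 179, 123, 134.9, 50.2 and 48.3 CPM and in ORX_IH 61.2, 131, 133.9, 282 and 85.9. All 15 libraries of the other groups lay above all 4 Sham_Nx libraries, and those 15 overlapped among themselves. Srebf1 rose 3.05-fold after orchiectomy in normoxia (log2 fold change 1.61, SE 0.43, adjusted p = 0.019). It was 3.47-fold higher in Sham_IH than in Sham_Nx (1.79, SE 0.43, adjusted p = 0.074 in the fit of all groups and 0.0064 in the sham groups fitted alone). Between Sham_IH and ORX_IH the difference was 0.19 (95% interval -0.57 to 0.94, adjusted p = 0.85), and between ORX_Nx and ORX_IH 0.37 (-0.38 to 1.13, adjusted p = 0.68). The interaction was -1.42 (-2.53 to -0.31, unadjusted p = 0.022, adjusted p = 0.74). Averages over the other factor were 0.90 (SE 0.29, adjusted p = 0.031) for orchiectomy and 1.08 (SE 0.29, adjusted p = 0.039) for intermittent hypoxia. The rise in normoxia was not called without mouse 2 or mouse 4 of Sham_Nx (adjusted p = 0.052 and 0.051) or without the 4 libraries highest in skeletal muscle markers (0.14). It was called in 30 of 33 alternatives, against 20 of 32 for the orchiectomy average (0.68 and adjusted p = 0.059 without mouse 4 of ORX_IH) and 14 of 32 for the hypoxia average (0.87 and adjusted p = 0.060 without that library).

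Mlxipl ranged from 187 to 296 CPM in Sham_Nx, 267 to 318 in Sham_IH, 148 to 294 in ORX_Nx and 206 to 342 in ORX_IH. The groups overlapped throughout, and mice 4 and 5 of ORX_Nx were lowest, at 162 and 148. The difference for orchiectomy in normoxia was -0.04 (95% interval -0.44 to 0.35, adjusted p = 0.92). Its sign turned to 0.24 without mice 4 and 5 of ORX_Nx and to 0.07 with no scaling factors, so no direction is given. For intermittent hypoxia averaged over operations it was 0.27 (SE 0.14, adjusted p = 0.27).

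Mid1ip1 encodes MIG12, which promotes assembly of acetyl-CoA carboxylase into active filaments. It had 13.2, 18.6, 22.4 and 16.1 CPM in Sham_Nx and 40.5, 52.2, 44.9, 51.8 and 37.0 in Sham_IH, without overlap. ORX_Nx split into 39.0, 50.1 and 49.3 CPM in mice 1 to 3 and 18.2 and 17.1 in mice 4 and 5, which lay within the Sham_Nx range. ORX_IH had 30.6, 42.2, 60.7, 80.3 and 38.1 CPM. Mid1ip1 rose by intermittent hypoxia averaged over operations (log2 fold change 0.95, SE 0.22, adjusted p = 0.022), a 1.93-fold difference, and was called in 28 of 32 alternatives. Without mouse 5 of Sham_Nx the adjusted p was 0.052. Orchiectomy in normoxia raised it 1.98-fold (0.99, SE 0.32, adjusted p = 0.046), which held in only 10 of 33 alternatives.

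Thrsp encodes Spot 14, a lipogenic protein related to MIG12 and responsive to thyroid hormone and carbohydrate. It had 8.21, 6.83, 4.99 and 7.79 CPM in Sham_Nx and 9.45, 9.64, 10.7, 39.3 and 12.8 in Sham_IH. ORX_Nx gave 53.2, 62.3, 20.0, 10.4 and 8.30 CPM, and ORX_IH 13.6, 17.6, 10.5, 266 and 11.2. Mouse 4 of ORX_IH lay far above the rest of its group. Averaged over exposures Thrsp rose 4.15-fold with orchiectomy (2.05, SE 0.64, adjusted p = 0.028). Without mouse 4 of ORX_IH the log2 fold change was 0.92 (adjusted p = 0.094), and without mouse 4 of Sham_Nx the adjusted p was 0.059. Under intermittent hypoxia alone the orchiectomy difference was 1.95 (adjusted p = 0.24), and it was -0.32 without that ORX_IH library.

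**Figure D3:**
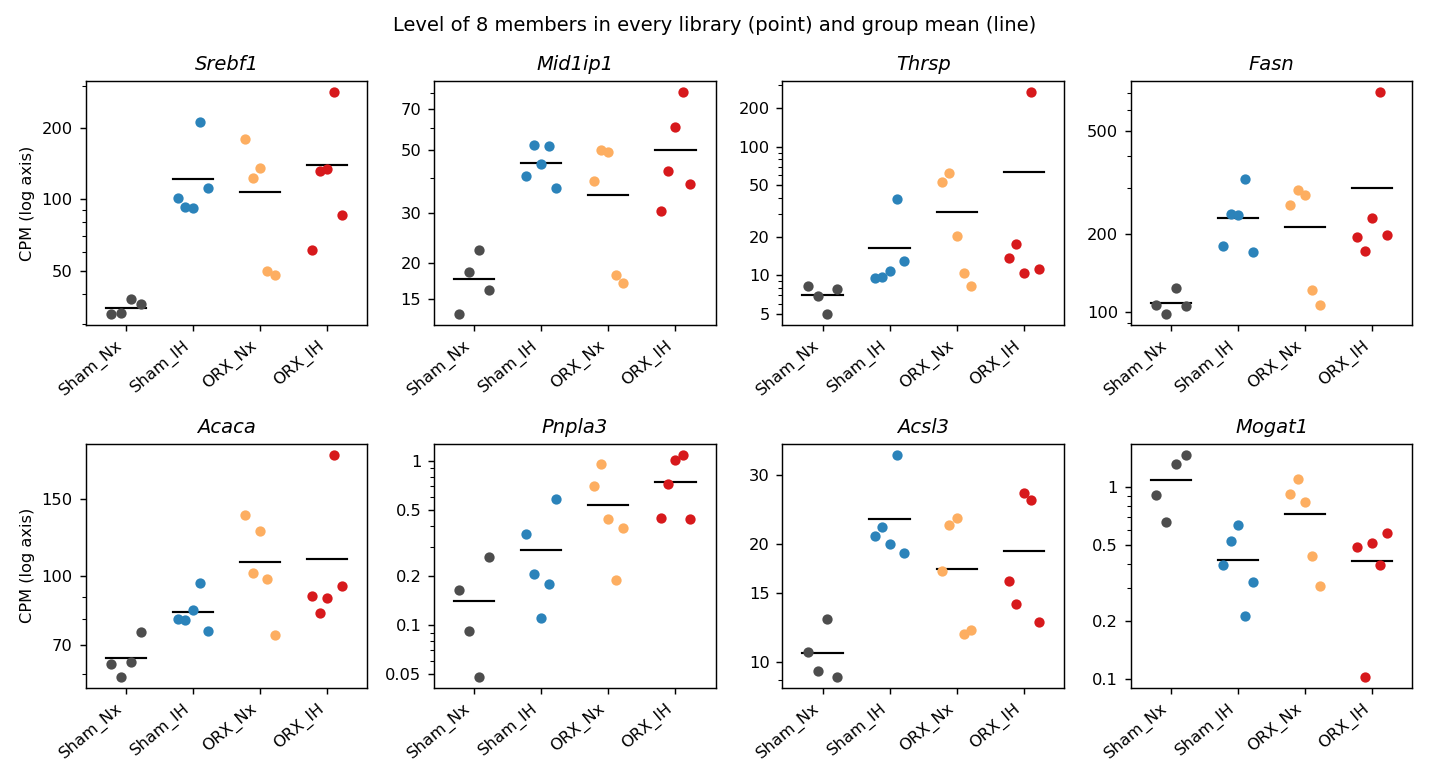
CPM on a log axis of 8 members in every library (points) with group means (lines). For Srebf1 the 4 Sham_Nx points lie between 33.0 and 38.0, below every other point; Pnpla3 and Mogat1 stay at 1.47 CPM or less.

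Among the 10 fatty acid synthesis and activation genes, 2 rose and 0 fell after orchiectomy in normoxia (7.88% and 6.46% of all genes) and 1 rose in the average over exposures (11.8% of all genes), a count near the share of all genes. Acaca, which encodes acetyl-CoA carboxylase 1, the committed step, had 63.3, 59.3, 63.8 and 75.0 CPM in Sham_Nx. It had 80.1, 79.7, 83.8, 96.4 and 75.4 CPM in Sham_IH, just above that range. ORX_Nx had 137.8, 102, 127, 98.7 and 73.9 and ORX_IH 90.2, 82.8, 89.4, 189 and 95.2. Acaca rose 1.47-fold with orchiectomy averaged over exposures (0.56, SE 0.14, adjusted p = 0.010) and 1.65-fold in normoxia (0.72, SE 0.21, adjusted p = 0.029). The average was called in all 32 alternatives run, with log2 fold changes of 0.41 to 0.61 when single libraries were left out. The normoxia call was lost without mice 2, 3 or 4 of Sham_Nx or mice 1 or 3 of ORX_Nx (adjusted p at most 0.077). Acacb, which makes the mitochondrial carboxylase, had an averaged orchiectomy difference of 0.06 (95% interval -0.19 to 0.31) and was not called. That average joins opposite differences of -0.35 in normoxia and 0.47 under intermittent hypoxia, with an interaction of 0.82, none of them called. In the sham groups fitted alone, intermittent hypoxia gave -0.57 (adjusted p = 0.061).

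Acly, ATP citrate lyase, which makes cytosolic acetyl-CoA from citrate, had 83.7, 109, 90.4 and 104 CPM in Sham_Nx. It had 148, 133.4, 131, 194 and 122.1 in Sham_IH and 152, 140.4, 168, 121 and 152 in ORX_Nx, all above the Sham_Nx libraries. In ORX_IH it had 107, 128, 127, 211 and 103, which overlapped Sham_Nx. Orchiectomy in normoxia raised Acly 1.52-fold (0.60, SE 0.18, adjusted p = 0.033), and intermittent hypoxia in sham mice gave 0.59 (SE 0.18, adjusted p = 0.15; 0.037 in the sham groups alone). The normoxia call was lost without mice 2, 4 or 5 of Sham_Nx or mice 1, 3 or 5 of ORX_Nx (adjusted p up to 0.096). Its interaction was -0.71 (95% interval -1.19 to -0.23, unadjusted p = 0.0095, adjusted p = 0.70).

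Fasn had 106.3, 97.9, 123 and 105.5 CPM in Sham_Nx and 179, 239, 237, 325 and 170.3 in Sham_IH, without overlap. It had 258, 296, 284, 121 and 105.98 in ORX_Nx and 194, 171, 230.0, 706 and 198 in ORX_IH. The first 3 ORX_Nx mice lay above all Sham_Nx libraries and mice 4 and 5 did not. No comparison called Fasn in the fit of all groups. Its log2 fold changes were 0.98 (SE 0.39, adjusted p = 0.099) for orchiectomy in normoxia, 1.09 (SE 0.39, adjusted p = 0.23) for intermittent hypoxia in sham mice and 0.68 and 0.79 (adjusted p = 0.074 and 0.092) for the averages. In the sham groups alone Fasn rose (1.09, SE 0.17, adjusted p = 0.011).

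Acsl3, a long-chain acyl-CoA synthetase of the endoplasmic reticulum and lipid droplets, had 10.6, 9.47, 12.9 and 9.19 CPM in Sham_Nx and 21.0, 22.1, 20.0, 33.8 and 19.0 in Sham_IH. It had 17.1, 22.4, 23.3, 11.8 and 12.1 in ORX_Nx and 16.1, 14.1, 27.0, 25.9 and 12.6 in ORX_IH. Acsl3 rose 1.56-fold with intermittent hypoxia averaged over operations (0.64, SE 0.17, adjusted p = 0.044). That call held in 12 of 32 alternatives and was lost, among others, without mouse 2 of Sham_Nx (adjusted p = 0.080). Its difference was 1.14 (SE 0.26, adjusted p = 0.065) in sham mice and 0.15 (SE 0.24, adjusted p = 0.81) in orchiectomized mice, with an interaction of -0.99 (adjusted p = 0.70).

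Aacs, acetoacetyl-CoA synthetase, which returns ketone bodies to lipid synthesis, ranged from 9.88 to 24.9 CPM in Sham_Nx and 25.3 to 51.6 in Sham_IH. In ORX_Nx it had 85.9, 42.1, 42.7, 29.6 and 10.6 and in ORX_IH 25.5, 24.9, 75.8, 109 and 30.6. Its averaged orchiectomy difference was 0.89 (SE 0.34, adjusted p = 0.070). Me1, malic enzyme, a source of NADPH for the pathway, went the other way: 180.1, 196, 164 and 228 CPM in Sham_Nx against 109, 129.7, 125, 126 and 143.3 in Sham_IH. Me1 fell by 0.60 on the log2 scale in the sham groups fitted alone (adjusted p = 0.013). Acss2, Slc25a1 and Acsl5 were called in no comparison, and Acss2 stood at 175 CPM in mouse 4 of ORX_IH against 45.9 to 55.9 in the rest of that group.

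Among the 12 glycerolipid assembly genes, 2 rose (Gpat3 and Lpin1) and 0 fell in the orchiectomy average (11.8% and 10.1% of all genes), 1 fell (Gpat4) after orchiectomy in normoxia (6.46%), and 1 fell (Mogat1) in the hypoxia average (2.57%). Gpat3 and Gpat4 encode endoplasmic reticulum enzymes that start glycerolipid synthesis. Gpat3 had 4.20, 5.64, 7.64 and 4.58 CPM in Sham_Nx, 3.30, 4.32, 3.99, 4.74 and 2.91 in Sham_IH, 6.85, 7.94, 5.46, 7.67 and 11.2 in ORX_Nx and 6.62, 4.74, 7.34, 3.71 and 5.87 in ORX_IH. It rose 1.44-fold with orchiectomy on average (0.53, SE 0.16, adjusted p = 0.023; 0.053 without mouse 2 or mouse 5 of Sham_Nx). In the hypoxia average its difference was -0.49 (SE 0.16, adjusted p = 0.079).

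Gpat4, the more abundant of this pair per kilobase (66.3 against 3.25 RPKM in Sham_Nx), had 236, 241, 226 and 217 CPM in Sham_Nx. It had 175, 186, 180.1, 224 and 196 in ORX_Nx, where 4 of 5 libraries lay below the Sham_Nx range. It fell by 0.26 on the log2 scale (SE 0.08, adjusted p = 0.046), a call that held in 16 of 33 alternatives. Sham_IH, at 189 to 203 CPM, also lay wholly below Sham_Nx, and ORX_IH ranged from 156 to 213. Gpam, the mitochondrial enzyme of the same step and an SREBP-1c target, had 162 to 191 CPM in Sham_Nx and 199 to 267 in Sham_IH, and rose by 0.36 in the sham groups alone (adjusted p = 0.043).

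Lpin1, a phosphatidate phosphatase and transcriptional coactivator, had 12.3, 25.2, 10.9 and 19.7 CPM in Sham_Nx and 12.3, 14.7, 13.1, 23.5 and 20.0 in Sham_IH. It had 48.9, 22.6, 31.6, 194 and 15.8 in ORX_Nx and 21.5, 13.4, 10.7, 83.6 and 13.4 in ORX_IH. A single library in each ORX group, mouse 4 of each, lay far above the others. The averaged orchiectomy rise of 2.50-fold (1.32, SE 0.47, adjusted p = 0.049) was not called without mouse 4 of ORX_IH (0.85, adjusted p = 0.13) and held in 10 of 32 alternatives. Lpin2 and Lpin3 were not called in any comparison.

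Mogat1, a monoacylglycerol acyltransferase, was scarce, with 676 counts over all libraries. It had 0.913, 0.661, 1.32 and 1.47 CPM in Sham_Nx, 0.395, 0.521, 0.633, 0.213 and 0.320 in Sham_IH, 0.921, 1.10, 0.839, 0.437 and 0.307 in ORX_Nx and 0.490, 0.103, 0.510, 0.392 and 0.576 in ORX_IH. All Sham_IH libraries lay below all Sham_Nx libraries, and the ORX groups overlapped. Averaged over operations Mogat1 fell by 1.10 on the log2 scale under intermittent hypoxia (SE 0.29, adjusted p = 0.042), a 2.14-fold fall called in 12 of 32 alternatives. It was not called without mouse 2 or mouse 4 of Sham_Nx (adjusted p = 0.062 and 0.066). Dgat1, Dgat2 and the 3 Agpat genes were not called, and their averaged orchiectomy differences lay between -0.14 and 0.15.

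Among the 7 lipolysis genes, 6 passed the filter, and 2 of these, Pnpla3 and Lpl, rose in the orchiectomy average while 0 fell (11.8% and 10.1% of all genes). Pnpla3 encodes a lipid droplet protein that restrains lipolysis and is induced by SREBP-1c in mouse liver. It was scarce, with 470 counts over all libraries, and had 0.162, 0.0918, 0.0485 and 0.260 CPM in Sham_Nx and 0.359, 0.205, 0.110, 0.177 and 0.586 in Sham_IH. It had 0.703, 0.955, 0.440, 0.187 and 0.391 in ORX_Nx and 0.447, 0.722, 1.01, 1.09 and 0.439 in ORX_IH. Each ORX group overlapped its sham group by at least 1 library. Pnpla3 rose 3.11-fold with orchiectomy averaged over exposures (1.64, SE 0.37, adjusted p = 0.0052) and 3.78-fold in normoxia (1.92, SE 0.56, adjusted p = 0.030). The average was called in 31 of 32 alternatives and at an adjusted p of 0.051 without the 4 muscle-high libraries (1.67). In normoxia alone it was not called without mouse 4 of Sham_Nx (1.63, adjusted p = 0.10).

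Lpl, the lipase that clears triglyceride from blood in muscle, heart and fat and is low in adult hepatocytes, had 26.5, 18.8, 20.0 and 15.5 CPM in Sham_Nx and 17.5, 20.5, 19.8, 18.2 and 22.3 in Sham_IH. It had 24.9, 14.3, 18.3, 29.0 and 66.4 in ORX_Nx and 100, 55.8, 17.1, 22.5 and 28.5 in ORX_IH. The 3 highest libraries were mice 1 and 2 of ORX_IH and mouse 5 of ORX_Nx. The first 2 are those with 1151 and 682 CPM of skeletal muscle markers, led by Myh1 at 229 and 131 CPM. Mouse 1 of ORX_IH was also the highest library in 7 of 10 adipocyte markers, among them Cfd (20.1 CPM) and Adipoq (2.77 CPM), but not in Cidec, Adrb3 or Car3. Car3, the most abundant of the list, was at 233 CPM there, and the summed list, at 307 CPM, was the second lowest of the 19 libraries (198 to 1410). Mouse 5 of ORX_Nx had 10.2 CPM of muscle markers and 732 CPM of Kupffer cell and macrophage markers. Lpl rose 1.85-fold with orchiectomy on average (0.89, SE 0.31, adjusted p = 0.048), and without the 4 muscle-high libraries its difference was 0.49 (adjusted p = 0.29). It was also not called without mice 4 and 5 of ORX_Nx (0.56, adjusted p = 0.18), and held in 9 of 32 alternatives.

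**Figure D4:**
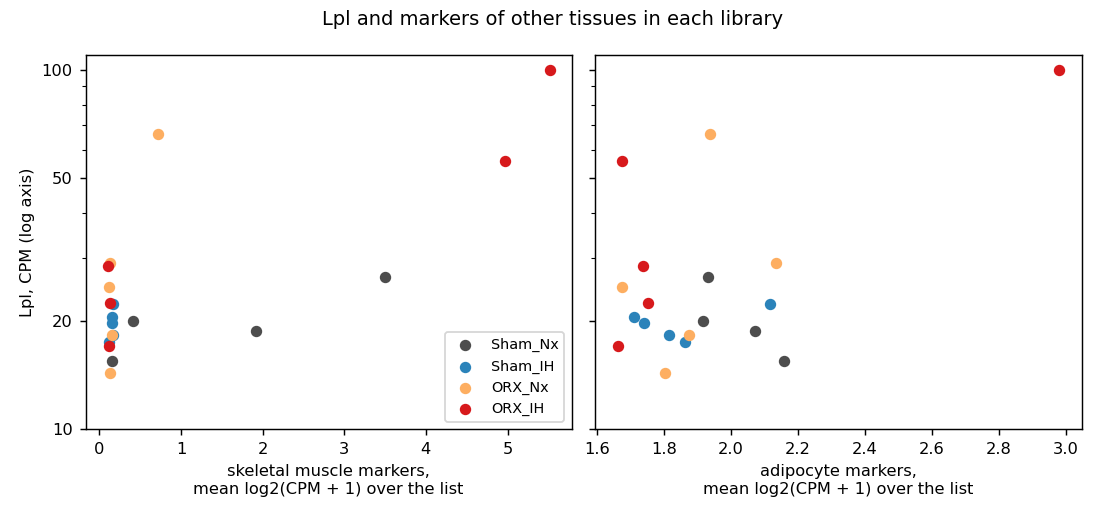
Lpl in CPM (log axis) against the mean log2(CPM + 1) of 14 skeletal muscle markers (left) and 10 adipocyte markers (right), 1 point per library coloured by group. The ORX_IH points at 100 and 55.8 CPM are the 2 farthest right on the muscle axis, and the first of them is also the farthest right on the adipocyte axis; the ORX_Nx point at 66.4 CPM is not far right on either.

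The neutral lipases changed in no comparison by edgeR's test over all groups. Pnpla2, which encodes adipose triglyceride lipase, had 90.9 ± 16.8 CPM in Sham_Nx (SD, n = 4) and 72.3 ± 9.06 in ORX_Nx (n = 5). Its averaged orchiectomy difference was -0.19 (95% interval -0.38 to -0.01, adjusted p = 0.15). Lipe (hormone-sensitive lipase) differed by 0.01 (-0.14 to 0.17) and Hilpda, which hypoxia-inducible factors switch on in many cells, by -0.00 (-0.28 to 0.28). In the hypoxia average Hilpda differed by -0.12 (-0.39 to 0.15, adjusted p = 0.65). Of the secretion genes, Mttp differed by -0.15 with orchiectomy (-0.28 to -0.03, adjusted p = 0.088) and Tm6sf2 by 0.30 with intermittent hypoxia (0.12 to 0.49, adjusted p = 0.071), neither called.

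Correlations with Srebf1 between mice of the same group depended on which libraries were included. After group means were removed, 10 of 33 members correlated with Srebf1 at a Pearson r of 0.7 or more over the 19 libraries, where 305 of 16163 genes (1.89%) did. Highest were Fasn (r = 0.84, Spearman rho = 0.73), Mid1ip1 (0.83, rho = 0.82) and Thrsp (0.83, rho = 0.71), followed by Mlxipl, Acaca, Aacs, Acss2, Dgat2, Acsl3 and Acly. The permutation p within groups was 0.0028 for Fasn, 0.0013 for Mid1ip1 and 0.0018 for Thrsp, and the adjusted p over all genes was 0.15, 0.13 and 0.13, so that 0 members passed and 14 had an unadjusted permutation p under 0.05. By rho the permutation p was 0.0054, 0.00080 and 0.0047, with adjusted p of 0.16, 0.13 and 0.15. The 2 libraries farthest from the Srebf1 median, mouse 4 of ORX_IH and mouse 2 of Sham_Nx, were picked before group means were removed. Mouse 2 of Sham_Nx, at 33.0 CPM, lay close to its group mean of 35.1, so leaving it out is a weak check. Without these 2 libraries r was 0.79 for Fasn, 0.81 for Mid1ip1 and 0.79 for Thrsp. In the 15 libraries numbered 1 to 16 in the deposited table (all but mouse 5 of each group) it was 0.82, 0.80 and 0.80. Mice 4 and 5 of ORX_Nx, which had the high Kupffer cell and acute phase sums, were the lowest of their group in Srebf1, Fasn, Mid1ip1, Thrsp and Mlxipl. Without them, over 17 libraries, 8 of 33 members had an r of 0.7 or more, against 2.43% of all genes. There r was 0.74 for Fasn, 0.69 for Mid1ip1 and 0.79 for Thrsp, with rho of 0.28, 0.47 and 0.49 and adjusted permutation p of 0.36, 0.35 and 0.35, so by rank much of the relation was not seen without those libraries. Over all 19, Lpl (-0.62) and Pnpla2 (-0.58) had the lowest values. Libraries share depth and composition, so these values describe how mice differ.

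**Figure D5:**
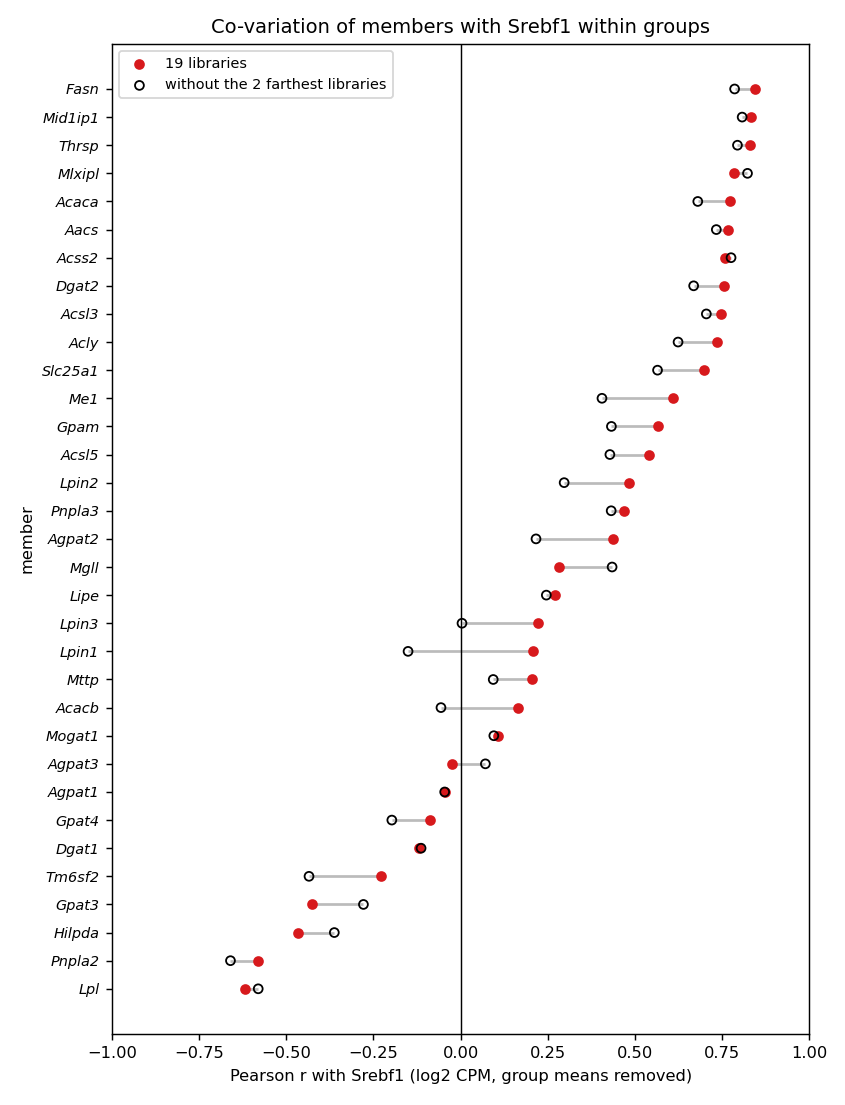
Pearson r of each member with Srebf1 (x axis) on log2 CPM after group means were removed, over 19 libraries (filled) and without the 2 libraries farthest from the median of Srebf1 (open). Those 2 were picked before group means were removed. Filled points are highest for Fasn, Mid1ip1 and Thrsp, at 0.84, 0.83 and 0.83, and their open points lie at 0.79, 0.81 and 0.79. The highest open point is that of Mlxipl, at 0.82. Lpl and Pnpla2 lie lowest in both.

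Other genes of fat metabolism were read from 6 lists. Their counts stand against all genes tested, of which 1.96% rose and 2.57% fell in the hypoxia average, 11.8% rose and 10.1% fell in the orchiectomy average, and 7.88% rose and 6.46% fell with orchiectomy in normoxia. No count below is given as particular to its list. Of 8 desaturation and elongation genes, 2 fell and 0 rose with intermittent hypoxia on average, and 1, the ketoacyl reductase Hsd17b12, fell with orchiectomy (-0.31 on average, adjusted p = 0.011). That average of Hsd17b12 was called in 29 of 32 alternatives and not with no scaling factors, with differences as small as -0.18. Scd1, stearoyl-CoA desaturase and a classical SREBP-1c target, had 4523, 3210.0, 1337 and 8395 CPM in Sham_Nx and 706, 800.1, 881, 1009 and 1119 in Sham_IH. It had 5698, 5752, 5784, 3889 and 2228 in ORX_Nx and 959.5, 1954, 929.5, 5973 and 2965 in ORX_IH. All Sham_IH libraries lay below all Sham_Nx libraries, the reverse of Srebf1 and Fasn in the same animals. Averaged over operations, Scd1 fell by 1.57 on the log2 scale under intermittent hypoxia (SE 0.35, adjusted p = 0.018). It was called in 27 of 32 alternatives and not without mouse 5 of Sham_Nx (adjusted p = 0.053). In the same average the elongase Elovl5 fell by 0.46 (SE 0.09, adjusted p = 0.0092), a call lost only without the 4 muscle-high libraries (adjusted p = 0.11).

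Of 22 sterol and lipogenic control genes, 2 rose and 1 fell with intermittent hypoxia. Pparg, the nuclear receptor of fat storage, had 8.07 to 9.77 CPM in Sham_Nx, 4.92 to 6.12 in Sham_IH, 8.71 to 12.5 in ORX_Nx and 6.29 to 9.02 in ORX_IH. It fell by 0.63 with intermittent hypoxia (SE 0.08, adjusted p = 0.0013) and rose by 0.35 with orchiectomy (SE 0.08, adjusted p = 0.0049), both called in all 32 alternatives. Within operations Pparg fell by 0.66 in sham mice (adjusted p = 0.020) and by 0.60 in orchiectomized mice (adjusted p = 0.049). The first was called in 24 of 33 alternatives and lost when any of 4 single libraries was left out. The second was called in 14 of 33 and lost when any of 12 single libraries was left out. Srebf2, which controls cholesterol synthesis, rose by 0.43 with intermittent hypoxia on average (adjusted p = 0.032, lost when any of 8 single libraries was left out). Mlx, the partner of ChREBP, rose by 0.23 (adjusted p = 0.0043), a call lost only without the 4 muscle-high libraries (adjusted p = 0.12). Scap, the SREBP escort, fell by 0.24 with orchiectomy (adjusted p = 0.016). It was called in 27 of 32 alternatives and not with no scaling factors, with differences as small as -0.12.

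Of 13 genes of glucose entry and NADPH supply, 3 rose and 0 fell with orchiectomy on average. Pgd, a pentose phosphate enzyme, rose by 0.42 (adjusted p = 0.0016), Pklr (liver pyruvate kinase) by 0.80 (adjusted p = 0.026) and Khk (ketohexokinase) by 0.47 (adjusted p = 0.0496). Leaving out single libraries ended the call of Khk in 13 cases, of Pklr in 2 (mouse 2 or 4 of Sham_Nx) and of Pgd in 0. Pklr, called in 26 of 32 alternatives, was also lost by limma-voom, limma-trend, the replicate block and without the 4 muscle-high libraries. It had 78.8, 89.4, 92.3, 276 and 103 CPM in ORX_IH, against 76.0 to 95.6 in Sham_IH.

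Of 13 lipid droplet coat and lipase cofactor genes, 12 were tested. Orchiectomy in normoxia lowered 4 and raised 0: the 3 with the largest change were Cidec (-1.91, adjusted p = 0.035), Plin5 (-0.62, adjusted p = 0.021) and Abhd5, the activator of adipose triglyceride lipase (-0.48, adjusted p = 0.032). Plin5 was called in 27 of 33 alternatives and lost without mouse 4 of Sham_Nx, and Abhd5 in 21 of 33, lost without any of 5 single libraries (mouse 2, 4 or 5 of Sham_Nx or mouse 3 or 5 of ORX_Nx). Neither was called without mice 4 and 5 of ORX_Nx. Cidec, a droplet-fusion protein, had 51.7 CPM in mouse 4 of Sham_Nx against 12.3 to 14.3 in the other 3, and without that library the difference was -1.14 (adjusted p = 0.21). Intermittent hypoxia lowered Plin2, the main droplet coat protein of hepatocytes: it had 902, 548, 1106 and 663 CPM in Sham_Nx and 314, 447, 418, 359.5 and 341 in Sham_IH. Plin2 fell by 1.10 in sham mice (SE 0.21, adjusted p = 0.033, lost when any of 7 single libraries was left out). On average Plin2 fell by 0.73 (SE 0.14, adjusted p = 0.010). No single library ended that call, but it was lost without the 4 muscle-high libraries (adjusted p = 0.10). In the averages Hsd17b13 fell by 0.26 with intermittent hypoxia (adjusted p = 0.019), and Cideb and Bscl2 each fell by 0.15 with orchiectomy (adjusted p = 0.021 and 0.046). Hsd17b13 was called in 29 of 32 alternatives and not without the muscle-high, pancreas-high or adipocyte-high libraries. Cideb was called in 26 of 32 alternatives and not with upper-quartile or no scaling factors, and Bscl2 in 9 of 32, with differences as small as -0.023 and -0.026.

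Of 17 other lipase and VLDL assembly genes, 1 rose and 1 fell with orchiectomy on average. Ces1g, a carboxylesterase that limits hepatic fat, rose by 0.94 (SE 0.18, adjusted p = 0.0017, called in all 32 alternatives), and Apob, the core protein of VLDL, fell by 0.24 (adjusted p = 0.024). Apob was called in 28 of 32 alternatives and not with no scaling factors, with differences as small as -0.11. Under intermittent hypoxia Angptl4, an inhibitor of lipoprotein lipase, fell by 0.96 (adjusted p = 0.027, lost when any of 6 single libraries was left out). Of 12 fasting-induced genes, 2 fell with intermittent hypoxia, Igfbp1 by 1.55 (adjusted p = 0.025, called in 27 of 32 alternatives and lost without mouse 5 of Sham_Nx) and Cpt1a, which admits fatty acids to mitochondria, by 0.39 (adjusted p = 0.0044). The Cpt1a call was lost only without the 4 muscle-high libraries (adjusted p = 0.12). With orchiectomy Ppargc1a rose by 0.53 (adjusted p = 0.0041) and Pck1 fell by 0.82 (adjusted p = 0.030), the first called in all 32 alternatives and the second in 22, lost when any of 5 single libraries was left out (mouse 3 or 5 of Sham_Nx, mouse 4 or 5 of Sham_IH or mouse 2 of ORX_IH). Pdk4 rose by 2.29 with orchiectomy under intermittent hypoxia (adjusted p = 0.025), but its 73.4 and 34.96 CPM in mice 1 and 2 of ORX_IH, the muscle-high libraries, stood against 7.18 to 9.13 in the other 3. Without the 4 muscle-high libraries its difference was 0.56 (adjusted p = 0.45), and its averaged rise of 1.08 (adjusted p = 0.049) was lost when any of 15 single libraries was left out. In normoxia alone orchiectomy also raised Ppargc1a by 0.82 (adjusted p = 0.0054, called in all 33 alternatives), Ces1g by 1.11 (adjusted p = 0.011) and Pgd by 0.58 (adjusted p = 0.0048), and Hsd17b12 fell by 0.45 (adjusted p = 0.016).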

How the data were processed

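Values of poly(A) RNA libraries from 19 livers were analysed here. The labels list 20 samples, and no column of deposited values could be matched to mouse 1 of Sham_Nx. The authors used fastp 0.23.2 and kallisto 0.46.1 with GRCm39, per the submitters' processing notes. They deposited estimated counts per gene (27.5% of values not whole) and a table of log2 expression with an F-statistic score, a p-value and a q-value; of the last table only the log2 values were used. No source used here says how transcripts were summed to genes.

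Counts were rounded and tested with edgeR 4.0.16 (filterByExpr at a minimum count of 10, TMM, quasi-likelihood) over all 4 groups, which was tested on simulated data. SE is the absolute log2 fold change over the root of F. DESeq2 1.42.0, limma 3.58.1 (voom, and trend on the deposited log2 values), other scalings, no filter, the compared groups alone, a replicate block and left-out libraries were alternatives. Whether counting used strand is not stated in those notes, so overlapping genes may share reads.

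Named members are Srebf1, Mlxipl, every member called in any of 7 contrasts and the 2 largest uncalled differences in each; of the other lists, called genes are named, at most 3 per list and contrast; 1 result of these lists is not reported here. Members and lists were chosen with earlier results of these data known. Libraries are from separately numbered mice.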

Additional observations from a re-analysis of the deposited data

Results flagged for a closer look

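Within groups of 4 or 5 libraries, 10 of 60 combinations of named member and group held a library far from the others by Dixon's gap ratio. Its chance rate of about 5% is for normal values and genes not picked on the same data. The CPM used were not log-scaled and many members were named for large differences, so the 10 are not set against that rate. Members that vary together are also not independent. Of the 10 flags, 5 belonged to mouse 4 of ORX_IH: Fasn at 706 CPM (171 to 230.0 in the other 4), Acaca at 189 (82.8 to 95.2), Acly at 211 (103 to 128), Thrsp at 266 (10.5 to 17.6) and Lpin1 at 83.6 (10.7 to 21.5). Mouse 4 of Sham_IH held 3: Srebf1 at 211 CPM (91.5 to 112 in the other 4), Thrsp at 39.3 (9.45 to 12.8) and Acsl3 at 33.8 (19.0 to 22.1). In ORX_Nx, mouse 4 had Lpin1 at 194 CPM (15.8 to 48.9) and mouse 5 had Lpl at 66.4 CPM (14.3 to 29.0).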

How the results depend on the processing

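Of 2431 refits of single genes under alternatives, 11 turned the direction, 432 lost the call and 15 gained one. Members changed by orchiectomy in normoxia (6) were 3 with the compared groups alone, 3 with the replicate block, 0 without the 4 muscle-high libraries, 3 without the 3 libraries highest in pancreatic genes, 3 without the 4 libraries numbered 17 to 20 (mouse 5 of each group), and 0 to 9 with single libraries left out. Members changed by orchiectomy under intermittent hypoxia (0) were 1 with no scaling factors, and 0 to 0 with single libraries left out. Intermittent hypoxia in sham mice (0) gave 5 by DESeq2, 10 with the compared groups alone, 3 without mice 4 and 5 of ORX_Nx, and 0 to 3 with single libraries left out; in orchiectomized mice (0) it gave 1 by DESeq2 and 0 to 1. The orchiectomy average (7) gave 13 with no scaling factors, 3 by limma-voom, 4 by limma-trend, 4 with the replicate block, 1, 4 and 4 without the muscle-high, pancreas-high and 17 to 20 libraries, and 3 to 9 with single libraries left out. The hypoxia average (4) gave 2 with no filter, 7 by DESeq2, 2 by limma-trend, 0, 0 and 1 without the muscle-high, pancreas-high and adipocyte-high libraries, 2 without mice 4 and 5 of ORX_Nx, 0 without libraries 17 to 20, and 0 to 5 with single libraries left out.

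Fewer libraries enter each fit that leaves some out; other causes were not tested. Without mice 4 and 5 of ORX_Nx, Mlxipl turned to 0.24 for orchiectomy in normoxia, -0.053 for intermittent hypoxia in orchiectomized mice and 0.060 for the orchiectomy average (0.054 without libraries 17 to 20), and Srebf1 to -0.064 for intermittent hypoxia in orchiectomized mice. Lpin1 turned to 0.029 there without the 3 adipocyte-high libraries, mouse 1 of ORX_IH, mouse 5 of Sham_Nx and mouse 4 of ORX_Nx. The last of these had the highest Lpin1 of all libraries, 194 CPM, and a part of adipocyte content in this turn was not tested. Thrsp turned to -0.11 in the same comparison with the replicate block. Leaving out single libraries gave ranges of -0.24 to 0.49 for Srebf1 and -0.32 to 2.59 for Thrsp in orchiectomy under intermittent hypoxia, and -0.056 to 0.64 and -1.23 to 1.47 for intermittent hypoxia in orchiectomized mice, the lowest each time without mouse 4 of ORX_IH.

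With no scaling factors the median of all genes moved to 0.14, 0.13 and 0.13 for orchiectomy in normoxia, under intermittent hypoxia and on average, and 86.4%, 85.5% and 89.4% of called genes were higher, against 54.9%, 45.4% and 53.8% (67.1%, 57.2% and 67.6% with upper-quartile scaling). Replicate numbers did not pair the libraries: same-numbered pairs across groups correlated at -0.20 to 0.40, median 0.0037, with 5 of 27 over 0.1. The alternatives for the genes of the other 6 lists, and the correlation with Srebf1 without mice 4 and 5 of ORX_Nx, were chosen after seeing the data. Depth limits Pnpla3 and Mogat1, with 470 and 676 counts in all.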
